A study of Mus musculus with 25 samples.

Results

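Open chromatin regions of mK4 cells, a mouse line derived from embryonic kidney mesenchyme, were examined where a Notch1 (N1) ChIP region fell inside them and where their openness was not listed as dependent on Notch. The members were chosen by position in the authors' lists: they are peaks of the total FAIRE list on chromosomes 1 to 19 and X that overlap no peak of the Notch-dependent FAIRE list and overlap an N1 ChIP region by 1 bp or more. There were 3514 of them, among 17083 FAIRE peaks outside the Notch-dependent list and 19353 total FAIRE peaks on these chromosomes. The 17083 peaks are called constitutive below as a short name only. Both FAIRE lists were read as lists of N1wt cells, from the NW in their names, and no list named for the control cells was used here. Whether these peaks are open in control cells was therefore not tested. The series also has 3 Control FAIRE libraries, and no source used here states whether they entered the Notch-dependent list. The groups of libraries behind the lists used were N1-D/RBP-AM-Ert2, N1-D/MAML-AM-Ert2 and N1-D/p300-AM-Ert2 (3 libraries each), N1-D/N1-AM-Ert2 (2), Mef2c-D/MAML-AM-Ert2 and Mef2c-D/p300-AM-Ert2 (1 each), N1wt FAIRE (3, with 1 input), N1 ChIP (1, with 1 input) and, as the common control of the 6 complexes, DAM (3). All are from mK4 cells. The strain label is CD1 except for 1 N1/N1 library (CD2) and the Mef2c/MAML library (CD3). In these names D and AM stand on the fused proteins, and Ert2 is an estrogen receptor domain used to make a protein respond to ligand; no label gives a dose or time.

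Notch receptors are cleaved when a neighbouring cell presents a ligand, and the freed intracellular part enters the nucleus. There it joins RBP, the DNA-binding protein of the pathway, and MAML, a co-activator that in turn recruits the acetyltransferase p300. In the embryonic kidney the pathway is known for its part in patterning the nephron. Mef2c is a MADS-box transcription factor that can also work with MAML and p300. In SpDamID, each of a pair of proteins carries an inactive part of the adenine methylase Dam, and GATC sites are methylated where both proteins meet. A pair is called a complex here and a peak that overlaps a region of its list is called marked. FAIRE recovers DNA that is poorly cross-linked to protein, and the N1 ChIP was made against a myc tag.

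Every list is for the whole series and pools its libraries, so no value below has a replicate error. Lists differ in size, from 16547 regions (N1/MAML) and 22360 (N1/p300) through 28281 (N1/RBP), 28757 (Mef2c/p300) and 31938 (N1/N1) to 50381 (Mef2c/MAML), and the ChIP list has 22307. Shares of peaks carry exact Clopper-Pearson 95% intervals, which cover counting error only. Errors of fitted values (SE) are over blocks of 5 Mb of the genome (522 hold a constitutive peak, and fewer a marked peak or a member) and do not measure the spread between libraries.

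The rule used the FAIRE and ChIP lists, so the following values of both describe the members and carry no test. Peaks with ChIP were long, with a median of 1138.5 bp and 90% of them between 649.65 and 2620 bp, against a median of 873 bp and 90% between 498.4 and 1825 bp in the 13569 constitutive peaks without ChIP. Their MACS scores were also higher, with a median of 187.11, against 146.81 without ChIP. The share of peaks with ChIP was 7.76% in the shortest quartile of constitutive peaks, 16.2% in the second, 23.5% in the third and 34.8% in the longest, of 1240 bp or more. By quartile of MACS score it was 14.0, 18.3, 21.0 and 29.0% from lowest to highest. Length and score therefore moved with membership, and the fits below hold both constant.

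Most members held a single ChIP region. There were 2210 members with 1 ChIP region (62.9%), 814 with 2 (23.2%), 304 with 3 (8.65%) and 186 with 4 or more (5.29%). Members with 1 region had a median length of 1079 bp, and those with 5 had 2107 bp. The ChIP regions covered a median of 28.1% of the peak, and 90% of members lay between 2.89 and 83.8%. In 74.4% of the 5627 pairs of a ChIP region and a member the ChIP region lay wholly inside the peak, and 25 members lay wholly inside 1 ChIP region. Of the ChIP centres, 54.5% fell in the middle 50% of the peak, with a median distance of 283.5 bp between both centres. At the edge of the rule, 36 members were overlapped by less than 10 bp, the smallest overlap being 1 bp, and 19 peaks without ChIP had a ChIP region at a gap of less than 10 bp.

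**Figure D1:**
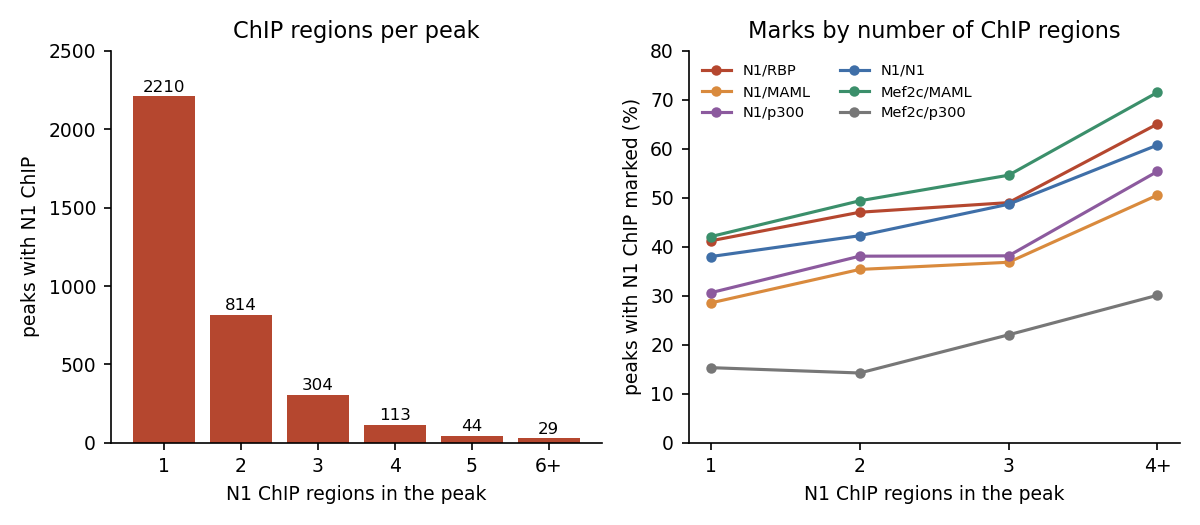
Left, number of peaks with N1 ChIP (vertical axis, peaks) by the number of ChIP regions they hold (horizontal axis); 2210 hold 1 and 29 hold 6 or more. Right, share of these peaks marked by each complex (percent) by the number of ChIP regions, with length not held constant; N1/RBP marked 41.2% of peaks with 1 region and 65.1% of those with 4 or more.

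The members overlap 5587 ChIP regions, 25.05% of the 22306 on these chromosomes. These are called inside members, although 1 bp of overlap is enough. All others are called elsewhere, also any in Notch-dependent FAIRE peaks. A longer ChIP region can meet a peak more easily, so the rule itself bears on the lengths and read equivalents compared here. ChIP regions inside members were longer than those elsewhere, with a median of 223 bp inside and 113 bp elsewhere. Their signal per base was also slightly higher, with a median of 1.63 inside and 1.46 elsewhere, and their ratio of ChIP to input had a median of 16.2 inside and 14.5 elsewhere. Ratios ran from 10.01 to 1910 inside members. The input signal, which is fixed at 0.1 in most regions, was off that value in 15.1% of the ChIP regions inside members and 8.15% of those elsewhere. Where the input is fixed, the ratio only rescales the signal. The medians of signal and ratio are therefore largely the same comparison. ChIP signal times region length was a whole number (within 0.001) in all 22306 regions. Of the 2204 regions whose input is off the fixed value, 970 had an input product of exactly 51 and 185 a product of 102, and the signal was therefore read as a mean coverage by reads of 51 bases. On that reading, ChIP regions inside members held the equivalent of 7.63 such reads at the median, against 3.51 in ChIP regions elsewhere. Summed over the ChIP regions of a member, the median was 13 such reads, and 259 members (7.37%) had less than 2. These sums count the whole of each ChIP region, also any part outside the peak. No source states the read length, and among ChIP regions over 300 bp the ChIP product was a multiple of 51 in 883 of 5834 (15.1%). The ChIP is a single library.

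The first comparison asked which complexes mark open regions that hold N1 by ChIP, set against open regions that do not. Counted as they stand, peaks with ChIP were marked more often by 4 of the complexes and less often by Mef2c/p300. N1/RBP marked 1564 of the 3514 peaks with ChIP, 44.5% (95% interval 42.9 to 46.2%), against 38.9% (38.1 to 39.8%) of those without and 40.1% of all constitutive peaks. N1/MAML marked 1125, 32.0% (30.5 to 33.6%), against 23.7% (23.03 to 24.5%) of those without and 25.4% of all. N1/p300 marked 1206, 34.3% (32.7 to 35.9%), against 30.8% (30.1 to 31.6%) of those without and 31.6% of all. These shares lay a few points from the background of all constitutive peaks.

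The dimer readout N1/N1 marked 1445 peaks with ChIP, 41.1% (39.5 to 42.8%), against 42.6% (41.8 to 43.4%) of those without and 42.3% of all. Mef2c/MAML, a pair without Notch, marked the most, 1631 or 46.4% (44.8 to 48.1%), against 38.8% (37.98 to 39.6%) of those without and 40.4% of all. Mef2c/p300 marked the fewest, 578 or 16.4% (15.2 to 17.7%), against 22.7% (22.02 to 23.4%) of those without and 21.4% of all.

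**Figure D2:**
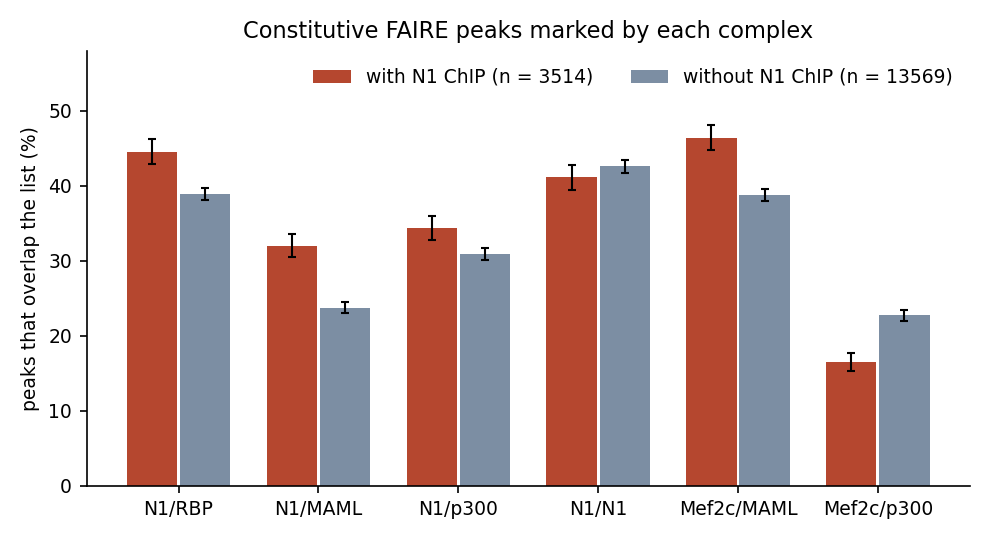
Share of constitutive FAIRE peaks that overlap each SpDamID list (vertical axis, percent), for peaks with N1 ChIP (n = 3514, left bar) and without (n = 13569, right bar); error bars are exact 95% intervals for counting error. Mef2c/MAML marked 46.4% of peaks with ChIP against 38.8% of those without, and Mef2c/p300 16.4% against 22.7%.

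With peak length and MACS score held constant, 4 complexes marked peaks with ChIP less often than peaks without, and none passed in the other direction. A logistic regression over all 17083 constitutive peaks gave Mef2c/p300 an odds ratio of 0.440 (95% interval 0.391 to 0.494; n = 522 blocks, adjusted p = 2.43e-42, Benjamini-Hochberg over 8 fits). For N1/N1 the odds ratio was 0.599 (0.546 to 0.658; n = 522 blocks, adjusted p = 1.80e-26). N1/p300 followed with 0.772 (0.699 to 0.853; n = 522 blocks, adjusted p = 5.44e-07) and N1/RBP with 0.851 (0.785 to 0.922; adjusted p = 0.000117). For both MAML complexes a difference was not detected: the odds ratio was 1.02 for N1/MAML (0.924 to 1.12; n = 522 blocks, adjusted p = 0.734) and 0.974 for Mef2c/MAML (0.893 to 1.06; adjusted p = 0.635). Without covariates the direction for N1/RBP, N1/p300 and Mef2c/MAML was the other way, with odds ratios of 1.26, 1.17 and 1.37 (n = 522 blocks, adjusted p = 2.56e-06, 0.00454 and 3.07e-10), and that for N1/MAML was 1.51 (adjusted p = 1.94e-14). The fits hold the length of the peak but not that of its ChIP regions. Inside members no ChIP region under 200 bp was itself a region of a SpDamID list. How this bears on the odds ratios was not tested. With ChIP regions of 300 bp or more alone, N1/RBP no longer passed (log odds -0.0857, with an adjusted p of 0.132) and N1/MAML was higher with ChIP (log odds 0.128, with an adjusted p of 0.0355). Under that setting N1/p300 (log odds -0.164, with an adjusted p of 0.0220), N1/N1 (-0.515, with 8.36e-18) and Mef2c/p300 (-0.859, with 4.87e-29) stayed lower with ChIP. Mef2c/MAML passed as lower with ChIP under 3 settings: SpDamID regions from the median score (log odds -0.0966, with an adjusted p of 0.0471), an overlap of 50% of the shorter region (-0.140, with 0.00641) and region centres inside the peak (-0.144, with 0.00519).

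**Figure D3:**
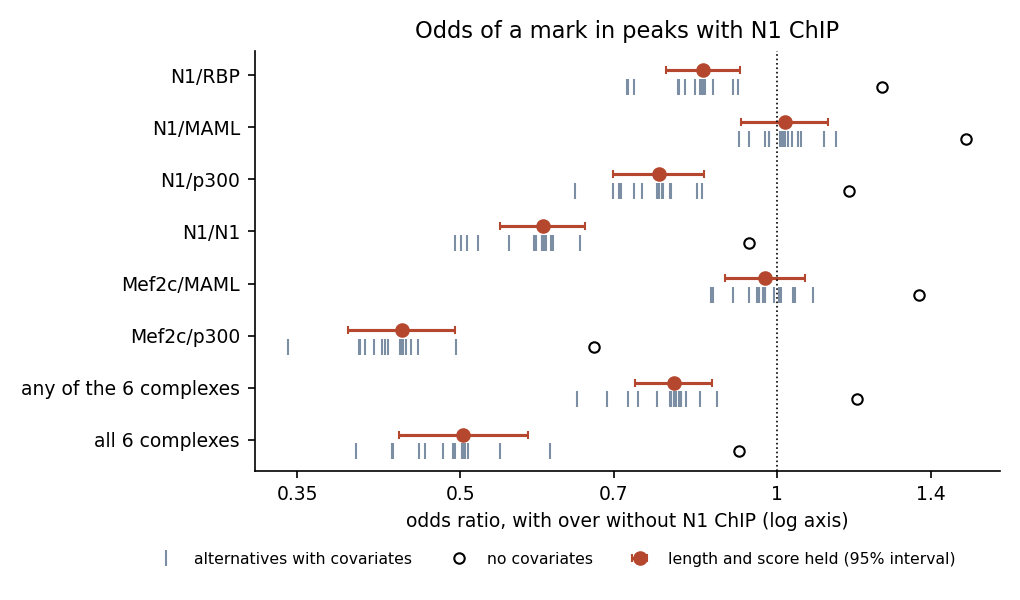
Odds ratio of a mark in peaks with N1 ChIP over peaks without (horizontal log axis), by complex and for any or all 6 of them; red points hold length and MACS score constant with 95% intervals, grey ticks are 16 alternative settings that keep covariates, and open circles have no covariates. Mef2c/p300 lies below 1 under every setting shown, at 0.440 with length and score held.

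Within quartiles of length the complexes differed in how far the classes lay apart. Mef2c/p300 marked 6.95, 8.79, 10.4 and 26.2% of peaks with ChIP from the shortest to the longest quartile, against 15.1, 18.6, 24.0 and 37.3% of peaks without. N1/N1 marked 19.9, 25.8, 33.2 and 58.3% with ChIP, against 26.7, 37.6, 49.8 and 62.8% without. Both were lower with ChIP in all 4 quartiles. N1/p300 was close in the outer quartiles, at 17.8% with ChIP against 18.6% without in the shortest and 49.1% against 49.8% in the longest, and lower with ChIP between them, at 21.9% against 26.2% and 26.4% against 34.5%. N1/RBP was lower with ChIP in the middle quartiles alone, at 30.8% against 33.7% and 36.5% against 44.5%; it was at 26.0% with ChIP against 25.2% without in the shortest quartile and 60.4% against 58.5% in the longest. N1/MAML shares crossed, being 17.5% with ChIP against 13.7% without in the shortest quartile, 23.9% against 26.7% in the third and 46.3% against 40.2% in the longest. Mef2c/MAML shares crossed too. They were 27.8% with ChIP against 27.9% without in the shortest quartile and 33.1% against 34.5% in the second. In the third they were 38.1% against 42.0%, and in the longest 62.3% against 56.0%. Whether the difference between classes changes with length was not tested.

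**Figure D4:**
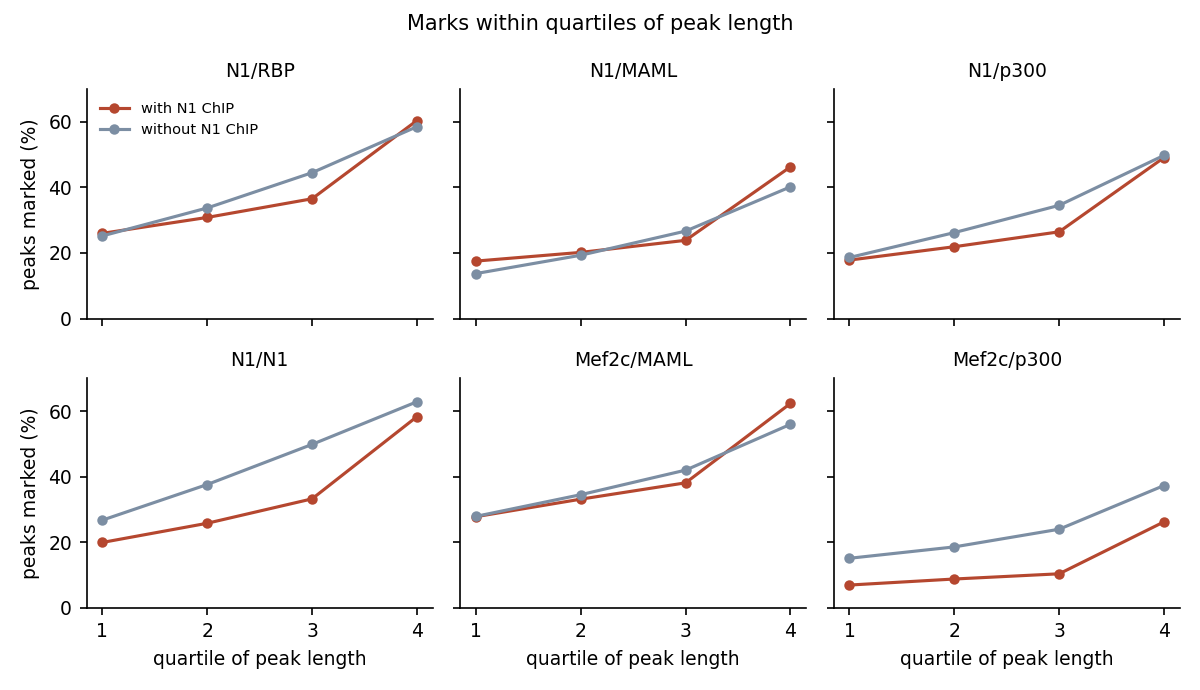
Share of constitutive peaks marked by each complex (vertical axis, percent) in quartiles of peak length (horizontal axis, 1 shortest to 4 longest), for peaks with and without N1 ChIP. The lines of Mef2c/p300 and N1/N1 stay apart in all 4 quartiles, for Mef2c/p300 at 6.95% with ChIP against 15.1% without in the shortest and 26.2% against 37.3% in the longest.

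Differences between complexes were tested in joint fits of the class coefficients. The co-activator p300 differed by partner: N1/p300 had the higher log odds ratio, and the difference from Mef2c/p300 was 0.563 ± 0.0578 (SE; n = 522 blocks, adjusted p = 6.31e-22 over 3 tests). With MAML the partners were not told apart, at 0.0428 ± 0.0440 for N1/MAML minus Mef2c/MAML (95% interval -0.0434 to 0.129; n = 522 blocks, adjusted p = 0.331). The dimer readout lay below N1/RBP, by -0.351 ± 0.0399 (n = 522 blocks, adjusted p = 2.48e-18). Each Mef2c list comes from 1 library, N1/N1 from 2 and the other N1 lists from 3, so a difference between complexes and one between libraries cannot be told apart.

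Combinations of complexes are given as counts, since all 6 lists share the Dam control. No complex marked 1253 members (35.7%, against 39.8% of peaks without ChIP and 38.9% of all), and 495, 379, 334, 296, 432 and 325 members carried 1 to 6 complexes in that order. Their shares were 14.1, 10.8, 9.50, 8.42, 12.3 and 9.25% of members, against 14.3, 10.5, 8.58, 7.49, 9.37 and 9.96% of peaks without ChIP, and most lay close together. The 5 complexes other than Mef2c/p300, with no mark by Mef2c/p300 itself, made up the commonest combination among marked members, at 335 (9.53%), against 4.81% of peaks without ChIP and 5.78% of all. All 6 marked 325 members (9.25%), against 9.96% of peaks without ChIP and 9.82% of all constitutive peaks. At equal length and score the odds ratio for all 6 was 0.503 (0.437 to 0.580; n = 522 blocks, adjusted p = 3.77e-21). At least 1 complex marked 2261 members (64.3%), against 60.2% of peaks without ChIP and 61.1% of all, with an odds ratio of 0.798 (0.733 to 0.868; n = 522 blocks, adjusted p = 3.17e-07) at equal length and score and 1.19 without covariates (adjusted p = 0.000313). From the shortest to the longest quartile of length these shares were 43.5, 49.3, 57.2 and 80.8% with ChIP. Without ChIP they were 45.7, 56.4, 66.3 and 78.5%, so the direction was the other way in the longest quartile. All 4 N1 complexes marked 689 members (19.6%, against 15.4% without ChIP and 16.3% of all). N1 complexes without either Mef2c complex marked 564 (16.1%, against 17.96% without ChIP and 17.6% of all), and Mef2c complexes without any N1 complex marked 208 (5.92%, against 5.76% without ChIP and 5.8% of all).

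Scores in marked peaks were compared next, using the highest score of the list in each peak. The deposited score is a whole number of unstated scale, so it was read within each list only. Marked peaks with ChIP had a median Mef2c/p300 score of 276.5, against 349 in marked peaks without. N1/N1 medians were 356 with ChIP and 402 without, and N1/p300 medians were 394 with ChIP and 432 without. With length and MACS score held constant these differences were -70.4 ± 7.67 for Mef2c/p300, -69.7 ± 5.70 for N1/N1 and -54.2 ± 6.24 for N1/p300 (SE; least squares, n = 469, 492 and 483 blocks, adjusted p = 1.40e-19, 1.59e-33 and 7.83e-18 over 6 fits). N1/RBP medians were 429.5 with ChIP and 423 without, and the difference with covariates was -19.2 ± 4.30 (n = 491 blocks, adjusted p = 1.01e-05). For Mef2c/MAML it was -26.7 ± 5.02 (n = 496 blocks, adjusted p = 1.63e-07). For N1/MAML the medians were 457 with ChIP and 450 without, and its -14.5 ± 7.34 (n = 467 blocks, adjusted p = 0.0489) did not pass under most alternative settings.

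Within the members, peaks with more ChIP regions were marked more often, and they were also longer. With 1, 2, 3 and 4 or more ChIP regions, N1/RBP marked 41.2, 47.1, 49.0 and 65.1% and Mef2c/MAML 42.1, 49.4, 54.6 and 71.5%. The median lengths of these classes were 1079, 1194.5, 1328.5 and 1831.5 bp. With length and score held constant, Mef2c/MAML was the one complex whose odds passed, with an odds ratio of 1.15 per added ChIP region (1.06 to 1.26; n = 455 blocks, adjusted p = 0.00805 over 6 fits). The other 5 odds ratios ran from 0.955 for Mef2c/p300 to 1.06 for N1/p300 (adjusted p from 0.383 to 0.686). These values depend on how length enters: with quartile classes of length and score in place of the logarithms, all 6 passed, including Mef2c/p300 with log odds of 0.112 (n = 455 blocks, adjusted p = 0.0280). Without chromosomes 3, 8 and 19 the Mef2c/MAML value did not pass (log odds 0.122, with an adjusted p of 0.121).

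ChIP regions and complex marks were then placed inside the peaks. Both lie on a common map of fragments: all 2489 overlaps of a ChIP region inside a member with a SpDamID region had identical ends. Of the 5587 ChIP regions inside members, 820 (14.7%) were themselves a fragment of a SpDamID list. This share differed by length: it was 0 of 1470 ChIP regions under 100 bp, 0 of 1102 from 100 to under 200 bp, 52 of 793 (6.56%) from 200 to under 300 bp, 384 of 1069 (35.9%) from 300 to under 500 bp and 384 of 1153 (33.3%) of 500 bp or more. No share over ChIP regions elsewhere is given here, so these shares have no background. The complex fragments themselves were long, with medians from 460 bp for N1/MAML to 616 bp for N1/N1 inside members. Members resting only on ChIP regions under 100 bp numbered 509, and 1961 (55.8%) held a ChIP region of 300 bp or more.

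Of the N1/MAML fragments inside members, 30.3% (28.02 to 32.7%) were ChIP regions, the highest share of the 6 lists. N1/p300 followed with 28.7% (26.6 to 31.0%), Mef2c/MAML with 23.8%, N1/RBP with 23.2% and N1/N1 with 20.1%. The lowest share was that of Mef2c/p300, 94 of 712 fragments or 13.2% (10.8 to 15.9%). Members were chosen for their overlap with ChIP, and no share over all fragments of each list was computed, so these shares have no background. Fragment length also differed between the lists, and their order was not tested. In each list most marked members held ChIP and complex on different fragments. No ChIP region under 200 bp was a fragment of a list, so members with only such regions could not have a common one. N1/RBP and ChIP had a common fragment in 477 of the 1564 members that N1/RBP marked (30.5%), and in 707 of the other 1087 a ChIP region bordered an N1/RBP fragment directly. For Mef2c/p300, 93 of 578 members had a common fragment and 252 of the other 485 had bordering ones. How often fragments of a common map border each other by position alone was not tested. Inside members, N1/MAML and N1/p300 fragments lay nearer the peak centre, with 49.3 and 47.4% of their centres in the middle 50% of the peak, against 34.8 to 37.6% for the other 4 lists. No such share is given here for peaks without ChIP, so whether this is particular to members was not tested.

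Members were unevenly spread over the chromosomes. On chromosome 8, 340 of 1064 constitutive peaks held ChIP, 32.0% (29.2 to 34.9%), and on chromosome 19 it was 194 of 657, 29.5% (26.1 to 33.2%). The other chromosomes ran from 14.0% on X to 23.9% on chromosome 11. Constitutive peaks were long on chromosomes 19, 3 and 8, with medians of 1142, 1104 and 1087 bp, against 833 to 942 bp elsewhere. ChIP regions numbered 2547 on chromosome 8, the most of any chromosome. The 3 chromosomes also had the highest shares of members marked by any complex, 80.9% on chromosome 3, 73.2% on 8 and 71.6% on 19. Peaks without ChIP were likewise marked most often there, at 71.4, 70.2 and 67.6% in the same order, so this held for the constitutive peaks of both classes. What sets these chromosomes apart was not tested. The lower share of Mef2c/p300 marks with ChIP was seen on all 20 chromosomes and stayed without chromosomes 3, 8 and 19 (log odds -0.812, with an adjusted p of 3.01e-27, against -0.822 with them). N1/N1 shares were lower with ChIP on 13 chromosomes and higher on 7, among them chromosome 3 with 62.6% against 52.6% without, and the share marked by any complex was lower with ChIP on 4 and higher on 16, with length not held constant in these counts.

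**Figure D5:**
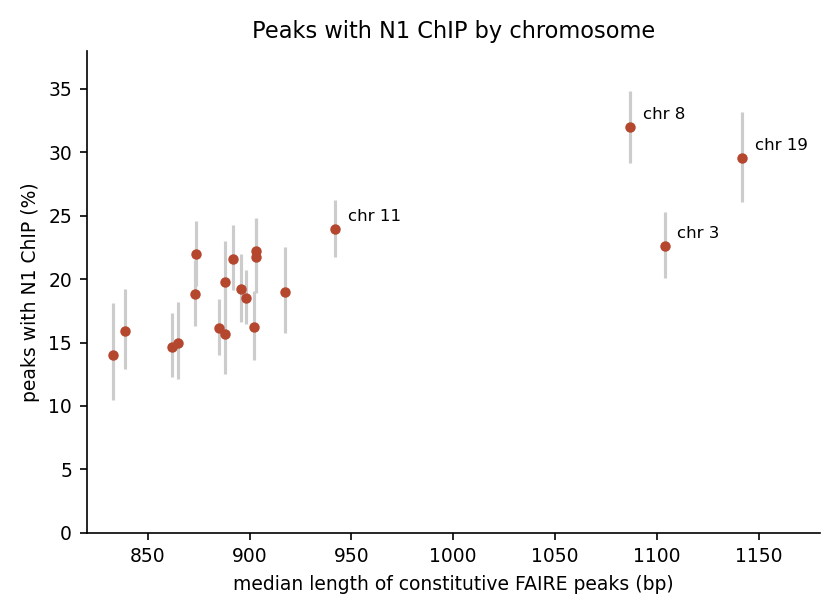
Share of constitutive FAIRE peaks with N1 ChIP (vertical axis, percent, with exact 95% intervals) against the median length of constitutive peaks (horizontal axis, bp), 1 point per chromosome. Chromosomes 3, 8 and 19 stand apart at medians of 1087 to 1142 bp, with 22.6, 32.0 and 29.5% of peaks holding ChIP.

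Single regions show the range of the members; coordinates are mm9, counted from 1, and no genes are named because no annotation of that build was used. Among members marked by all 6 complexes, the highest mean score rank was that of chromosome 11, 62362998 to 62366649, which is 3652 bp long and holds 11 ChIP regions over 66.2% of its length. Its N1 complexes scored 760 (N1/MAML), 735 (N1/p300), 686 (N1/N1) and 676 (N1/RBP), and its Mef2c complexes 713 (MAML) and 579 (p300). Its strongest ChIP region, 62365778 to 62365882, had a signal of 5.64 and was no fragment of any list. The second was chromosome 5, 143573553 to 143585995, the longest member at 12443 bp and the one with the most ChIP regions, 13. Its strongest ChIP region, 143583149 to 143583698, had a ratio of 76.1 and was a fragment of all 6 lists. The next in rank, chromosome 3, 95963605 to 95967134, had scores from 583 for Mef2c/p300 to 711 for N1/MAML but a single ChIP region of 70 bp with a ratio of 10.9. Chromosome 8, 129375211 to 129377615, and chromosome 11, 95719573 to 95721882, likewise held 1 ChIP region each, and chromosome 9, 106138855 to 106140262, held 2. High complex scores thus stood beside both many and few ChIP regions.

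Members without any complex could overlap much ChIP. Their ChIP signal was summed over the whole of each ChIP region, also where it runs beyond the peak. This sum was highest among them at chromosome 11, 52044965 to 52045670. A ChIP region of 1219 bp there had a ratio of 40.4 and covered 32.9% of the peak. That region runs from 52045439 to 52046657, so most of it lies outside the peak. Chromosome 15, 76291461 to 76293269, lay wholly inside a ChIP region of 3116 bp with a signal of 1.34. Chromosome 5, 144224704 to 144226735, held 2 ChIP regions with a highest ratio of 34.0. At chromosome 12, 80273305 to 80274088, and chromosome X, 166435162 to 166436766, the strongest ChIP regions had signals of 5.66 and 5.53, with input signals of 0.283 and 0.483, above the fixed value. Chromosome 8, 74152828 to 74154349, held 4 ChIP regions over 91.3% of its length. None of these 6 peaks overlapped a SpDamID region.

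Other members with many ChIP regions were chromosome 5, 141082732 to 141087958, with 11 and marks by N1/RBP, N1/p300 and N1/N1, chromosome 8, 87500988 to 87505688, with 9 and every complex but Mef2c/p300, and chromosome 3, 88423078 to 88429645, with 8 and all 6 complexes. After the longest member came 2 on chromosome 15, at 8390902 to 8400819 (9918 bp, MACS score 51.91, all 6 complexes) and 11963604 to 11973166 (9563 bp, 3 complexes). The shortest members were chromosome 10, 41775078 to 41775394 (317 bp), and chromosome 15, 78804447 to 78804777 (331 bp), both without a complex, and chromosome 9, 62398436 to 62398777 (342 bp), with 4. The highest MACS scores were 1945.23 at chromosome 1, 75313223 to 75314974, marked by N1/p300 alone at a score of 121, then 1507.73 at chromosome 8, 129117596 to 129121077, with all 6 complexes, and 1375.4 at chromosome 7, 20300427 to 20301829, with none. The members with the highest MACS scores thus ran from no complex to all 6. Among peaks without ChIP the highest MACS score was 1738.26.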

How the data were processed

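The submitters' processing notes name mm9 as the build of all coordinates. For each SpDamID list the authors deposited 1 score per region against Dam, kept at a confidence of 0.999 or more, per the file headers; lists were matched to complexes by the initials in their track names. The deposited FAIRE score is from MACS in Galaxy, per the file headers, with a lowest value of 50.01 in the total list. The authors deposited for each ChIP region a signal per base for ChIP and for input and their ratio of at least 10; the ChIP columns were told apart by that quotient. No source used here gives the aligner, the caller versions, how Notch-dependent peaks were chosen or the depth per library.

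Starts of FAIRE peaks had 1 base added, and an overlap of 1 bp or more counted. Fits (statsmodels 0.14.6, Python 3.11.15) were logistic or least squares on class, log2 length and log2 MACS score, with sandwich errors clustered on 5 Mb blocks, two-sided p and Benjamini-Hochberg adjustment within each family of 8, 3, 6 and 6; ChIP regions per peak were capped at 5 in the fits per added region. The fits were tested on data simulated from the same form of model, with length entering as its logarithm. Such a test cannot show an error in that form. Regions were named by rank: score rank over all 6 lists, summed ChIP, number of ChIP regions, length and MACS score, leaving out chromosome 18. The members and lists of this report were chosen with earlier results of these data known. No count of whole reads and no sequence was used, since no mm9 genome was at hand.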

Additional observations from a re-analysis of the deposited data

Results flagged for a closer look

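The difference between N1/p300 and Mef2c/p300 in log odds, peaks with ChIP against peaks without, was 0.563, and that between N1/N1 and N1/RBP was -0.351. Both stand out because effects under the same contrast differed between lists by a test of the difference itself, with adjusted p-values of 6.31e-22 and 2.48e-18. Both kept their direction and passed under all 17 alternative settings, with ranges of 0.525 to 0.695 and -0.463 to -0.290. No value per library is in the lists, so no single library could be examined.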

How the results depend on the processing

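No paired analysis was possible because every list pools its libraries and no value carries a replicate number; for the same reason no replicate could be left out. Of 391 values of 23 results under 17 settings, 322 kept direction and call. Mef2c/p300 log odds kept both throughout, from -1.07 to -0.401, and N1/N1, N1/p300, any complex and all 6 complexes did so with covariates. The 5 settings added after the data were seen were leaving out chromosome 8 or chromosomes 3, 8 and 19, chromosome as a class, 10 length classes, and ChIP products of at least 5 times 51. Values that changed call or direction follow; the cause was not tested. Class log odds without covariates were 0.229 (N1/RBP), 0.414 (N1/MAML), 0.158 (N1/p300), -0.0603 (N1/N1), 0.312 (Mef2c/MAML), 0.175 (any complex) and -0.0824 (all 6). Those of N1/MAML were -0.0168 in the 10th to 90th percentile of length, 0.128 with ChIP regions of 300 bp or more, -0.0174 with MACS scores of 100 or more, -0.0257 with SpDamID regions from the median score, -0.0839 by 50% overlap and -0.0613 by region centre. Those of Mef2c/MAML were 0.0344 with a ratio of 20 or more, 0.0798 with ChIP regions of 300 bp or more, 0.00833 with input above its fixed value, 0.00418 with the larger ChIP products, -0.0966 from the median score, -0.140 by 50% overlap and -0.144 by region centre (these 3 passed as lower with ChIP), and 0.0401 with quartile classes. N1/RBP with ChIP regions of 300 bp or more was -0.0857. The N1/MAML minus Mef2c/MAML difference was -0.0211 with a ratio of 20 or more, -0.00139 with input above its fixed value and 0.102 without covariates.

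The N1/MAML score difference was -12.8 with 10 length classes, -12.9 in the middle range of length, -14.5 with 20 Mb blocks (with an adjusted p of 0.0914), -12.1 with ChIP regions of 300 bp or more, -2.84 with input above its fixed value, -14.2 with chromosome as a class, 4.93 without covariates, -13.1 by 50% overlap, -10.2 with quartile classes, -16.2 by region centre, -14.0 without chromosome 8 and -6.29 without chromosomes 3, 8 and 19. The N1/RBP score difference without covariates was 3.24, and that of Mef2c/MAML was -6.07, or -15.8 with input above its fixed value. Log odds per added ChIP region without covariates were 0.244 (N1/RBP), 0.262 (N1/MAML), 0.276 (N1/p300), 0.252 (N1/N1) and 0.241 (Mef2c/p300), and with quartile classes 0.122, 0.145, 0.159, 0.116 and 0.112 in that order. With 10 length classes they were 0.0949 (N1/MAML), 0.107 (N1/p300) and 0.0408 (Mef2c/p300), with ChIP regions of 300 bp or more 0.319, 0.440 and 0.263, and with the larger ChIP products 0.188, 0.189 and 0.0216. With a ratio of 20 or more they were 0.135 (Mef2c/MAML), 0.0818 (Mef2c/p300) and -0.0139 (N1/MAML), with input above its fixed value 0.615 (Mef2c/MAML) and 0.135 (Mef2c/p300), from the median score 0.0993 (Mef2c/MAML), and without chromosomes 3, 8 and 19 0.122 (Mef2c/MAML). For N1/N1 they were -0.0266 in the middle range of length, -0.0201 by 50% overlap and -0.0243 by region centre. Members numbered 1351 with a ratio of 20 or more, 1961 with ChIP regions of 300 bp or more and 375 with input above its fixed value. The depth per library is unknown. On the reading as 51-base reads, the whole ChIP regions of 259 members (7.37%) held the equivalent of less than 2.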

Other observations

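Members lay a median of 231 kb from the nearest Notch-dependent FAIRE peak and peaks without ChIP 223 kb, and the nearest other constitutive peak was at 16.5 kb for members and 15.8 kb for peaks without ChIP. Among constitutive peaks without ChIP, 541 of 13569 lay within 500 bp of a ChIP region, and the median gap was 32.7 kb.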
